A study of Homo sapiens with 8 samples.

Results

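Cancer-testis antigens are proteins that normally appear in male germ cells and that tumours make again. The genes examined here were the members of the GAGE, SSX, MAGEA, MAGEB, MAGEC, CT45, XAGE, PAGE and CTAG families, chosen by the start of the gene symbol annotated to each array probe. The rule found 123 of 47323 probes, which stood for 68 of the 20046 gene symbols on the array. The prefix also took up 10 probes of the CTAGE genes and 1 probe of SSX2IP, which lie on autosomes and are not members of the X-linked families; the counts below include them where 123 probes or 68 genes are named, and key counts are given without them too. The other 112 probes stood for 61 genes, all placed on the X chromosome in the RefSeq gene table except GAGE4 and GAGE7, which had no entry there. The families were chosen because their signals under DMSO differed between the lines and because a CT45 probe had a lower value with lenalidomide in BC3, so those values are given as description and without a test.

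The series examined BC3 and BCBL1, lines of primary effusion lymphoma, a B-cell lymphoma that grows in body cavities and carries Kaposi sarcoma herpesvirus. Each line was grown with the solvent DMSO or with 5 µM lenalidomide, which binds cereblon, part of a ubiquitin ligase, and redirects that ligase to other proteins. The 4 groups, BC3 with DMSO, BC3 with lenalidomide, BCBL1 with DMSO and BCBL1 with lenalidomide, had 2 bead arrays each of total RNA labelled with Cy3. The arrays of a group, called a and b here, are technical replicates per the series text, so every p-value measures the spread between arrays and not between cultures, and how long the cells were exposed is not stated in the sources used here.

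Most X-linked cancer-testis genes stand in families of near-identical copies, and most are held silent outside the testis by DNA methylation of their promoters. MAGE proteins bind RING ubiquitin ligases and change what these ligases act on, SSX proteins are repressors of transcription that also occur fused to SS18 in synovial sarcoma, and CTAG1A and CTAG1B encode NY-ESO-1, a target of T-cell therapies. What GAGE, PAGE, XAGE and CT45 proteins do in cells is less well understood. A probe of short length may read several copies of such a family, so a value belongs to a probe, and the gene it is annotated to cannot be told apart from its closest copies.

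Array signals are given as intensities on the deposited linear scale, one array at a time and not normalized. Levels of different probes were ranked only to choose which probes to name, and no difference in expression between genes is read from them. Median intensities of the 8 arrays were 137 to 153, and 47.3% to 49.4% of probes lay above background. A probe counted as above background where its signal passed a threshold of 138.6 to 154.1, set for each array from the mode of its signals. Across the probes kept for testing, Pearson's r was 0.993 to 0.995 within groups, 0.989 to 0.991 for DMSO against lenalidomide in a line and 0.934 to 0.941 for BC3 against BCBL1; probes are not independent replicates. All 7 plasmablast markers were above background in BC3 and 6 of them in BCBL1, where the antibody joining chain gene JCHAIN was not well above background on any array. The B cell markers, which this lymphoma usually loses, had 5 members on the array. In BC3, CD79B was above background on both arrays with DMSO and CD79A on both arrays with lenalidomide. In BCBL1 CD79A and CD79B were above background on both arrays of each group, and no other marker was.

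BC3 showed signal for far more of these genes than BCBL1. Of the 123 probes, 77 were above background on both BC3 arrays with DMSO and 75 with lenalidomide, against 46 and 46 on the BCBL1 arrays. Over all 47322 probes analysed the shares were 41.9%, 41.7%, 41.2% and 40.8% in the same order, while those of the members were 62.6%, 61%, 37.4% and 37.4%. Without the CTAGE and SSX2IP probes the counts were 74, 71, 44 and 45 of 112 (66.1%, 63.4%, 39.3% and 40.2%). With lenalidomide, 26 members were above background on both BC3 arrays and on no BCBL1 array, where 2.77% of all probes were, and 1 member had the reverse pattern, where 1.99% of all probes did. The corresponding counts with DMSO were 27 (2.74% of all probes) and 3 (2.17%). The 3 were probes of MAGEB2, MAGEC2 and MAGEA5P, and the 1 was the same MAGEB2 probe. For 25 members, signal was above background on no array, as it was for 12635 of all 47322 probes. RNA of whole cultures was measured, so fewer cells expressing a gene and less RNA per cell cannot be told apart.

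The families differed in how many of their probes were read in BCBL1 as well as in BC3. All 13 GAGE probes were above background in BC3 under both treatments, against 2 in BCBL1 with DMSO and 0 with lenalidomide. Of 19 SSX probes, 15 and 14 were above background in BC3 and 4 and 5 in BCBL1, and of 8 PAGE probes 6 and 6 against 3 and 3. The CT45 probes stood at 10 of 11 in every group and the CTAG probes at 5 of 7 in every group. MAGEA had 16 and 16 of 27 in BC3 and 11 and 13 in BCBL1, MAGEB had 6 and 4 of 12 and 5 and 6, and MAGEC had 3 of 8 in each group. XAGE had little signal, with 1 of its 7 probes, that of XAGE1B, above background on both arrays of a group. That group was BCBL1 with DMSO.

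**Figure D1:**
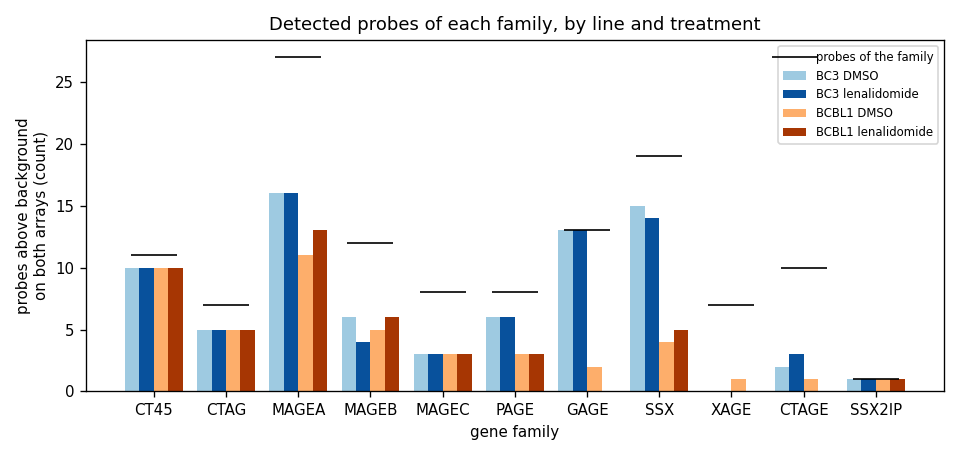
Number of probes above background on both arrays of a group (vertical axis, count), by gene family, for BC3 and BCBL1 with DMSO and with lenalidomide; the black line over each family is its number of probes. All 13 GAGE probes are above background in BC3 and at most 2 in BCBL1, while 10 of 11 CT45 probes are above background in every group.

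Many members lie just above the threshold, so the genes were also counted at 2 times the threshold, a limit chosen after the data were seen. At that limit 12 of the 61 X-linked genes had a probe above it on both arrays of each treatment in both lines, 18 in BC3 and in neither treatment of BCBL1, 0 in BCBL1 and not BC3, and 29 in neither line. MAGEC2 and SSX4 passed under 1 treatment of a line. Counted as probes, 52 and 50 of the 123 members passed in BC3 with DMSO and lenalidomide, and 25 and 26 in BCBL1. Of all 47322 probes, 10332 and 10228 passed in BC3 and 9989 and 9624 in BCBL1. Gene counts over the whole array at that limit are not given here. The 18 were 8 GAGE genes, 5 SSX genes, the 3 PAGE genes PAGE1, PAGE2 and PAGE2B, MAGEA4 and MAGEC1. The 12 read in both lines were CT45A1, CT45A3, CT45A5, CTAG1A, CTAG2, MAGEA1, MAGEA3, MAGEA6, MAGEA12, MAGEB1, MAGEB2 and PAGE5.

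**Figure D2:**
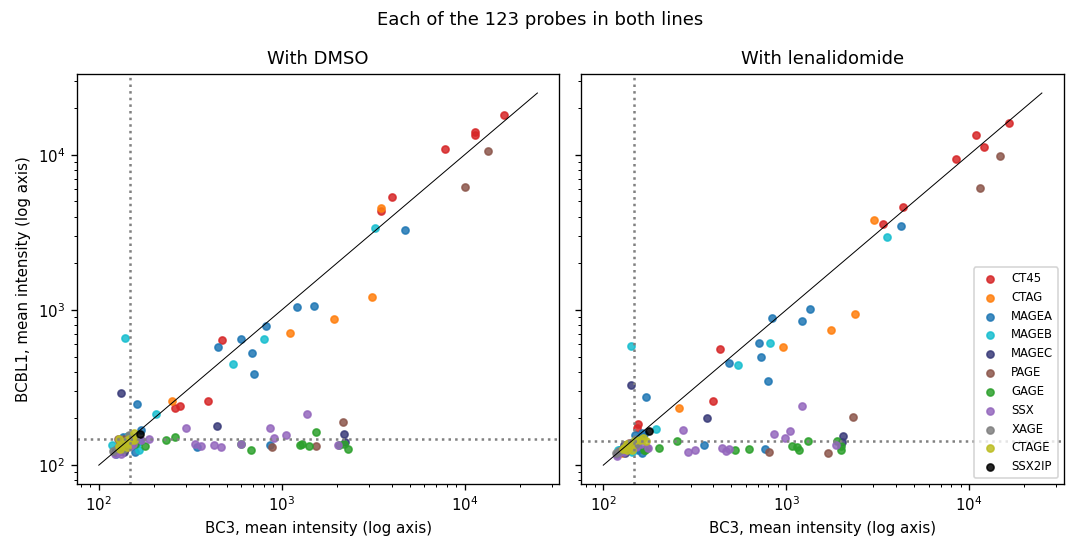
Mean intensity of the 2 arrays of BCBL1 (vertical axis, log scale) against that of BC3 (horizontal axis, log scale) for each of the 123 probes, with DMSO on the left and lenalidomide on the right, coloured by family; dotted lines mark the mean detection threshold of each pair of arrays and the solid line equal values. CT45, CTAG and part of MAGEA and MAGEB follow the line of equal values, and GAGE, SSX and part of PAGE run along the bottom, bright in BC3 and near the threshold in BCBL1.

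The line difference that chose the families was the one with DMSO, so a test is given for the arrays with lenalidomide only. CT45 is excepted, because its choice also drew on the BC3 arrays with lenalidomide, and its values are given without a test. The arrays with lenalidomide are of the same lines, with r of 0.989 to 0.991 to the DMSO arrays of their line. A line difference seen with DMSO was therefore likely to recur, and the test is not independent support for it. The test was limma's moderated test on normalized log2 values, adjusted by Benjamini-Hochberg over the 24097 probes that were above background on both arrays of some group. Of the 123 members, 84 passed that filter and 51 passed an adjusted p of 0.05, 8 higher in BCBL1 and 43 lower, CT45 probes making up 4 of the 8 and 1 of the 43. Over all probes tested 34% passed, 17.4% higher and 16.7% lower. A member that passed the filter through BC3 alone had to be lower in BCBL1. This covers bright probes as well as dim ones, among them those of GAGE12G, SSX2 (ILMN_1684697), PAGE1, PAGE2 and MAGEA4. The MAGEB2 probe ILMN_2078430 passed through BCBL1 alone and had to be higher there. The direction of such probes is not supported by their adjusted p. The count describes the members, and the intensities of single arrays and the size of the difference carry the comparison. Over all 123 members, filtered or not, the median log2 difference of BCBL1 minus BC3 was -0.11, beside 0.01 over all probes, and it was -0.124 over the 112 X-linked probes, which held all 51 calls. The family medians were -3.72 for GAGE, -1.78 for SSX, -0.68 for PAGE and 0.27 for CT45. With DMSO, 52 members passed, 8 higher and 44 lower, where 33.2% of all probes did, 17.2% and 16%; that contrast chose the families, and nothing is read from its counts.

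GAGE genes form a tandem array on the X chromosome, and their products are small acidic proteins first found as tumour antigens recognised by T cells. The 13 GAGE probes stood for 12 genes. The promoters of 10 GAGE genes in the RefSeq promoter table (GRCh38.p14) were close copies of each other: over the 250 bases before the start, the median identity of 45 pairs was 97.6%, and 28 pairs reached 95% or more. GAGE12B and GAGE10 were farther off, at 87.2% and 88.8% identity to GAGE12F, and were least like each other, at 76.4%. Windows were fixed to the annotated start and compared end to end, so a shifted start lowers the identity. The promoters of GAGE12F and GAGE10 are printed to show how alike the control regions are of genes that were read in BC3. The CpG pairs, the sites that DNA methylation marks, are in capitals.
GAGE12F (chrX:49560592-49560841, + strand): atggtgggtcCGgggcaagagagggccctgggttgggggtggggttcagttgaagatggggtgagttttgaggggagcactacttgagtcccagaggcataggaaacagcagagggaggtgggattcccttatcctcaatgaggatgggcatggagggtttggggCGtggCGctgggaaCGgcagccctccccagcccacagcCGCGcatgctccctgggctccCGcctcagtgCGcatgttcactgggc
GAGE10 (chrX:49303396-49303645, + strand): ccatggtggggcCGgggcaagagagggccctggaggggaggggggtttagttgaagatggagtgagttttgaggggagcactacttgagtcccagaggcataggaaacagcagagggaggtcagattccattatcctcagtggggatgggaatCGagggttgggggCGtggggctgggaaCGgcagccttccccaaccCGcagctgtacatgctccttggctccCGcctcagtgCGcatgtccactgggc

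The GAGE12G probe read 1841 and 2279.7 with DMSO and 2053 and 1912 with lenalidomide in BC3, and 137 and 134 with DMSO and 127 and 139 with lenalidomide in BCBL1. Every BC3 array was bright and no BCBL1 array was well above background. With lenalidomide the log2 difference of BCBL1 minus BC3 was -4.64 ± 0.13 (SE, n = 2 arrays a group, limma adjusted p = 2.97e-12), and the level in BC3 was at least 22-fold higher. For such a bound, on normalized values, each dim array counts at the weakest signal still called above background, or at its own signal where that is higher.

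GAGE4, a name no longer in the RefSeq table, had 2 probes with the same pattern. Its probe ILMN_2195385 read 2007 and 2587 with DMSO and 2010.4 and 1977 with lenalidomide in BC3, and 135 and 119 with DMSO and 122 and 127 with lenalidomide in BCBL1. The log2 difference with lenalidomide was -4.83 ± 0.15 (limma adjusted p = 9.64e-12), at least 22.1-fold. The other, ILMN_1715638, gave -4.41 ± 0.14 (adjusted p = 1.05e-11), with 1 of the 2 BCBL1 arrays above background. GAGE12J (-3.82), GAGE12F (-3.99), GAGE12H (-3.84), GAGE12C (-3.72), GAGE12B (-2.92) and GAGE2A (-2.72) were also lower in BCBL1 on the log2 scale, with no overlap between the arrays of the lines. The dim end of the family was GAGE12E (-1.02), GAGE10 (-0.92), GAGE7 (-0.66) and GAGE12D (-0.62), whose BC3 signals stayed under 2 times the threshold. The probes of GAGE10, GAGE7 and GAGE12D passed the filter through BC3 alone, which fixed their direction. That of GAGE12E was also above background on both BCBL1 arrays with DMSO. The GAGE12D probe read 163 and 194 with DMSO and 177 and 157 with lenalidomide in BC3, and 131 and 133 with DMSO and 123 and 126 with lenalidomide in BCBL1, so its BC3 arrays were above background by a small margin.

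The SSX genes encode repressors with a KRAB-like domain and a repression domain. SSX2, a partner in the SS18 fusion, had 5 probes, and all 5 were lower in BCBL1 with lenalidomide. Its brightest, ILMN_1684697, read 1784 and 2299 with DMSO and 1865 and 1882 with lenalidomide in BC3, and 130.4 and 140.3 with DMSO and 126 and 144 with lenalidomide in BCBL1. The log2 difference was -4.53 ± 0.14 (limma adjusted p = 9.88e-12), at least 20.7-fold, and the other 4 SSX2 probes lay between -3.23 and -1.85. The arrays of the lines did not overlap at any SSX2 probe.

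SSX1, another SS18 fusion partner, kept a signal in BCBL1. Its probe ILMN_2247572 read 1291 and 1449 with DMSO and 1280.4 and 1146 with lenalidomide in BC3, and 219 and 209.6 with DMSO and 239 and 239 with lenalidomide in BCBL1, and all 4 BCBL1 arrays were above background at a level below every BC3 array. The log2 difference with lenalidomide was -2.48 ± 0.13 (limma adjusted p = 1.94e-09). This was the largest difference of the 3 tested SSX1 probes, which ranged to -0.28, and 2 of them passed. SSX3 (-2.91 ± 0.15) and SSX4B (-3.06 ± 0.13) were lower too and likewise stayed above background in BCBL1 with lenalidomide. SSX5 (-2.52 ± 0.14) was lower and was not well above background there. SSX4 had 4 tested probes, from -1.78 to -0.07 on the log2 scale, of which 2 passed; the call of ILMN_1694952 held in 15 of 17 settings and was lost without array b of BC3 or array a of BCBL1, both with lenalidomide. The SSX7 probe was above background on no array. Over 20 pairs of SSX promoters in the RefSeq table the median identity was 46.4%, the closest pair reached 88.8%, and 0 pairs reached 95%. These values depend on the annotated starts: SSX2 windows that overlap each other gave 58.0% and 85.6% to the SSX4 window. A low value therefore does not show that the SSX control regions are unlike.

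PAGE genes are relatives of GAGE on the same chromosome. The PAGE2 probe read 1147 and 1926 with DMSO and 1795 and 1599 with lenalidomide in BC3, and 136 and 129 with DMSO and 123 and 117 with lenalidomide in BCBL1. Its BC3 arrays with DMSO were apart from each other, yet both stood far above every BCBL1 array, none of which was well above background. The log2 difference with lenalidomide was -4.69 ± 0.18 (limma adjusted p = 4.97e-11), at least 18.6-fold. PAGE2B read 2182 and 2127 with DMSO and 2559 and 2075 with lenalidomide in BC3, and 191 and 187 with DMSO and 206 and 205 with lenalidomide in BCBL1, and here the BCBL1 arrays were above background. Its difference was -3.79 ± 0.13 (adjusted p = 2.58e-11). The promoters of PAGE2 and PAGE2B, neighbours that were both lower in BCBL1, are printed because their windows are less alike than the printed GAGE pair, at 79.2% identity. The windows begin at different points of the shared sequence, which lowers that value.
PAGE2 (chrX:55088768-55089017, + strand): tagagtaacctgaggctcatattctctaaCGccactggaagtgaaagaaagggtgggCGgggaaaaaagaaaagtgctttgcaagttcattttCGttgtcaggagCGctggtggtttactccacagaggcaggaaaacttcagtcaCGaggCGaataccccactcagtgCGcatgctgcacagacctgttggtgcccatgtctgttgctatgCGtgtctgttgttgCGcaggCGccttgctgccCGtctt
PAGE2B (chrX:55074780-55075029, + strand): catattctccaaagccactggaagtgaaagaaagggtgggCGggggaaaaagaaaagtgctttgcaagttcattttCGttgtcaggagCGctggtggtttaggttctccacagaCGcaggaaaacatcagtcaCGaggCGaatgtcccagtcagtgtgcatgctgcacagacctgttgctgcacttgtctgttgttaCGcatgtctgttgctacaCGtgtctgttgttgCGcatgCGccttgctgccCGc

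PAGE1 read 893 and 885 with DMSO and 926 and 693 with lenalidomide in BC3, and 123 and 137 with DMSO and 119.7 and 122 with lenalidomide in BCBL1, with no BCBL1 array above background. Its log2 difference was -3.50 ± 0.14 (limma adjusted p = 7.44e-11), at least 8.23-fold. PAGE5 differed from its relatives in that it was bright in both lines. The probe ILMN_1744656 read 12561 and 14449 with DMSO and 15539 and 13991 with lenalidomide in BC3, and 10711 and 10361 with DMSO and 9653 and 9963 with lenalidomide in BCBL1. The lines differed by -0.43 ± 0.12 there (adjusted p = 0.015, a call that held in 14 of 18 settings) and by -0.74 ± 0.13 at ILMN_2363141 (adjusted p = 3.22e-04), and no BCBL1 array reached a BC3 array at either probe. PAGE4, a disordered protein known from prostate, was dim, with a log2 difference of -0.61 ± 0.14; it passed the filter through BC3 alone. PAGE3 was above background on 1 BCBL1 array.

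**Figure D3:**
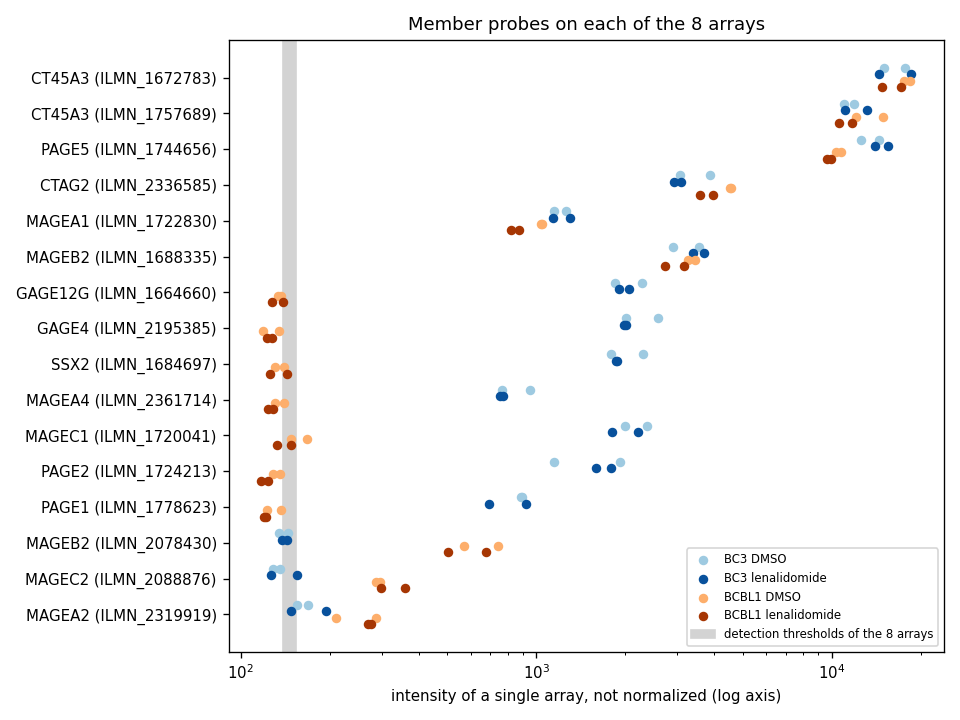
Intensity (horizontal axis, log scale, not normalized) of selected member probes on each of the 8 arrays, coloured by line and treatment; each point is 1 array and the grey band spans the detection thresholds. The CT45A3, PAGE5, CTAG2 and MAGEA1 probes and 1 MAGEB2 probe are bright on all arrays, the GAGE, SSX2, MAGEA4, MAGEC1, PAGE1 and PAGE2 probes are bright on the BC3 arrays and in or near the band on the BCBL1 arrays, and the last 3 probes are higher in BCBL1.

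Among the MAGE genes, the split ran within the families. MAGEC1, known as CT7 and common in myeloma, was read by 2 probes. ILMN_1720041 read 2002 and 2371 with DMSO and 2208 and 1810.3 with lenalidomide in BC3, and 148 and 168 with DMSO and 133 and 148 with lenalidomide in BCBL1. ILMN_2241627 read 2333 and 2093 with DMSO and 2468 and 1615 with lenalidomide in BC3, and 136 and 145 with DMSO and 157 and 153 with lenalidomide in BCBL1. The BCBL1 arrays lay around the threshold and every BC3 array far above it. The log2 differences with lenalidomide were -4.52 ± 0.13 and -4.25 ± 0.16 (limma adjusted p = 3.79e-12 and 5.25e-11). MAGEA4, which binds the ligase RAD18, read 768 and 955 with DMSO and 755 and 769 with lenalidomide in BC3, and 130.3 and 140.1 with DMSO and 124 and 129 with lenalidomide in BCBL1 at ILMN_2361714. Its BCBL1 arrays were not well above background, with a log2 difference of -3.29 ± 0.14 (adjusted p = 1.93e-10), at least 7.77-fold. The second MAGEA4 probe gave -1.83 ± 0.12.

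MAGEA3 and MAGEA6, which encode near-identical partners of the ligase TRIM28, were read in both lines. The MAGEA3 probe ILMN_1652276 read 629.9 and 741 with DMSO and 816 and 649 with lenalidomide in BC3, and 599.8 and 458 with DMSO and 539 and 455 with lenalidomide in BCBL1. The BCBL1 arrays were the lower ones without exception, but the log2 difference with lenalidomide, -0.35 ± 0.18, did not pass (limma adjusted p = 0.154). The other MAGEA3 probe, ILMN_2153572, was above background on both arrays of no group. The MAGEA6 probes gave -1.06 ± 0.19 (adjusted p = 5.65e-04), -0.19 ± 0.14 (adjusted p = 0.326) and 0.03 ± 0.16 (adjusted p = 0.905), so 1 of 3 passed. The promoters of MAGEA3 and MAGEA6 in the RefSeq table were identical over 250 bases, as were those of MAGEA9 and MAGEA9B and 1 promoter pair of MAGEA2 and MAGEA2B. The MAGEA3 sequence is printed as that of a member read in both lines, and it holds 15 CpG against 8 in GAGE12F.
MAGEA3 (chrX:152698544-152698793, + strand): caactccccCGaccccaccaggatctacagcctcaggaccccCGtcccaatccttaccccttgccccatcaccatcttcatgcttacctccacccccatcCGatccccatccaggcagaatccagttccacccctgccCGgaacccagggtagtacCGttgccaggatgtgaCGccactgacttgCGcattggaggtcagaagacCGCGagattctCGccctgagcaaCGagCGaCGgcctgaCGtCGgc

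MAGEA1, the founding member of the group, was bright in both lines. Its probe ILMN_2181593 read 4585 and 4903 with DMSO and 5121 and 3403 with lenalidomide in BC3, and 3121 and 3447 with DMSO and 3188 and 3803 with lenalidomide in BCBL1, and with lenalidomide the arrays of the lines overlapped (log2 difference -0.11 ± 0.14, limma adjusted p = 0.598). MAGEA12 gave 0.19 ± 0.15 and 0.34 ± 0.14 at its probes, neither past the threshold. MAGEA8 and MAGEA10 were dim and passed the filter through BC3 alone, which fixed their direction, with log2 differences of -0.68 ± 0.14 and -0.40 ± 0.15. The MAGEA10 call held in 7 of 18 settings, and its value was -0.195 without array a of BC3 with lenalidomide. MAGEB1 was read in both lines by 3 probes, with log2 differences of -0.19 to -0.07 and none past the threshold.

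MAGEB2 and MAGEC2 had probes that went apart. MAGEB2 was bright in both lines at ILMN_1688335, which read 2892 and 3542 with DMSO and 3679 and 3399 with lenalidomide in BC3, and 3265 and 3439.6 with DMSO and 2715 and 3157 with lenalidomide in BCBL1. Its probe ILMN_2078430 read 135 and 144 with DMSO and 144 and 138 with lenalidomide in BC3, and 569 and 745 with DMSO and 674 and 502 with lenalidomide in BCBL1, so no BC3 array was above background and every BCBL1 array was. The log2 differences with lenalidomide were -0.09 ± 0.13 (limma adjusted p = 0.65) and 2.92 ± 0.18 (adjusted p = 1.06e-08, at least 6.97-fold higher in BCBL1). MAGEC2, also known as CT10 and a partner of TRIM28, read 374 and 513 with DMSO and 374 and 361 with lenalidomide in BC3, and 161 and 196 with DMSO and 166 and 237 with lenalidomide in BCBL1 at ILMN_1757152. At ILMN_2088876 it read 128 and 136 with DMSO and 155 and 127 with lenalidomide in BC3, and 288 and 297 with DMSO and 298 and 359 with lenalidomide in BCBL1. The first was lower in BCBL1 (-0.95 ± 0.20, adjusted p = 0.00165) and the second higher (1.97 ± 0.14, adjusted p = 5.91e-08), so the direction for MAGEC2 depends on the probe. Over the 20 member genes with 2 or more tested probes, the probes of 8 differed by more than 1 log2 unit in this contrast, and MAGEC2 was the 1 gene with calls in both directions.

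MAGEA2 was read near the threshold by 2 probes and more clearly by ILMN_2319919, at 155 and 169 with DMSO and 195 and 148 with lenalidomide in BC3, and 211 and 288 with DMSO and 269 and 277 with lenalidomide in BCBL1. Every BCBL1 array was above every BC3 array (log2 difference with lenalidomide 1.19 ± 0.17, limma adjusted p = 7.85e-05), while the other MAGEA2 probes gave 0.23 and -0.01. The 8 probes higher in BCBL1 with lenalidomide were those of MAGEB2, MAGEC2 and MAGEA2 just given, 2 of CT45A1, 1 of CT45A3, that of CT45A6 and 1 of CTAG2. Apart from MAGEB2, MAGEC2 and MAGEA2, their log2 differences were 0.43 to 0.75.

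Most CTAG and CT45 probes were above background in both lines, while CT45A2 was so on no array. CTAG1A, which encodes NY-ESO-1, was lower in BCBL1 at each of its 3 probes. Its probe ILMN_2206411 read 2755 and 3459.6 with DMSO and 2444 and 2326 with lenalidomide in BC3, and 1255 and 1153 with DMSO and 886 and 985 with lenalidomide in BCBL1, and the arrays of the lines did not overlap. The log2 differences with lenalidomide were -1.21 ± 0.14, -1.10 ± 0.18 and -0.57 ± 0.17 (limma adjusted p = 6.66e-06, 2.19e-04 and 0.0168). The call of the third, ILMN_2206413, held in 11 of 17 settings, and without array b of BCBL1 with lenalidomide its difference was -0.304 (adjusted p = 0.215). CTAG1B encodes the same protein, and its 2 probes were above background on both arrays of no group. CTAG2, or LAGE-1, read 3071 and 3883 with DMSO and 3096 and 2921 with lenalidomide in BC3, and 4509 and 4545 with DMSO and 3973 and 3588 with lenalidomide in BCBL1 at ILMN_2336585. At this probe BCBL1 was higher by 0.51 ± 0.14 (adjusted p = 0.0102), a call that held in 15 of 18 settings, and at the other CTAG2 probe, ILMN_1787578, the difference was 0.03 ± 0.16 (adjusted p = 0.909).

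CT45 proteins are nuclear proteins whose peptides have been found on ovarian cancers. The CT45A3 probe ILMN_1672783 read 15055 and 17659 with DMSO and 18563 and 14439.9 with lenalidomide in BC3, and 18386 and 17521 with DMSO and 14803 and 17153 with lenalidomide in BCBL1. The lines overlapped there, and the log2 difference of BCBL1 minus BC3 with lenalidomide was 0.14 ± 0.13. The CT45A1 probe ILMN_2088565 gave 0.75 ± 0.15 with lenalidomide. Its other probe ILMN_2088560 gave 0.54 ± 0.13 with lenalidomide and -0.21 ± 0.13 with DMSO, and that of CT45A6 0.43 ± 0.13 and -0.17 ± 0.13, in the same order. The CT45A3 probe ILMN_2135944, which read 14229 and 7477 on the BC3 arrays with lenalidomide, gave 0.56 ± 0.18, but 0.862 without array a of that group and 0.247 without array b. The CT45A5 probes gave -0.51 (ILMN_2291565), 0.27 and 0.25 on the log2 scale.

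**Figure D4:**
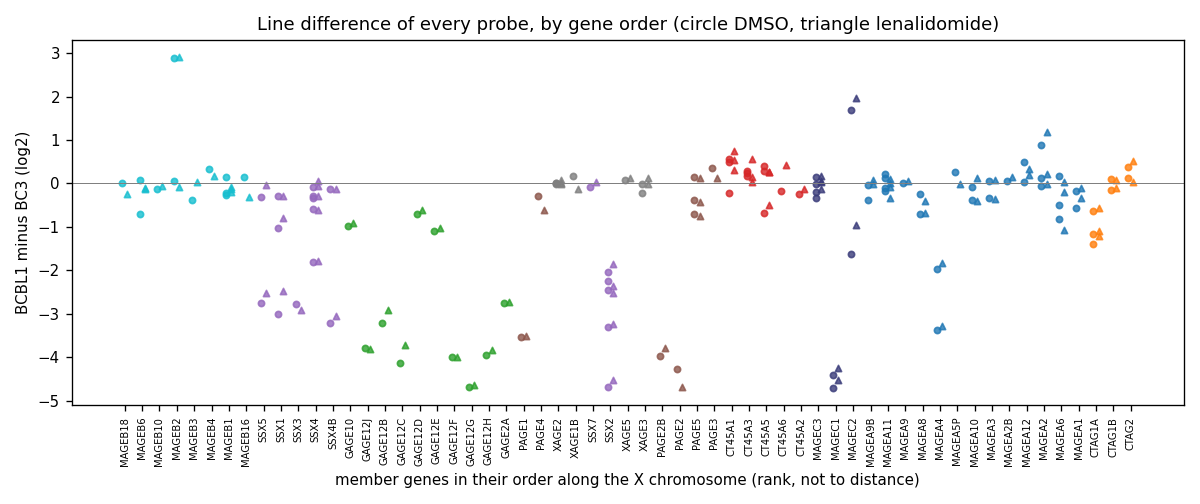
Log2 difference of BCBL1 minus BC3 (vertical axis) for each probe of 59 X-linked member genes with a place in the RefSeq table, ordered by their rank along the X chromosome (horizontal axis, not to distance); circles are DMSO, triangles lenalidomide, and colours the families. The GAGE run lies below 0 throughout, the SSX, PAGE and MAGEC genes hold both strongly lower and near-zero probes, and every CT45 probe lies within 1 log2 unit of 0.

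In their order along the X chromosome the strongly lower genes were neighbours in part. The GAGE genes with a place in the table followed each other, with PAGE1 next in the order, and SSX5, SSX1, SSX3, SSX4 and SSX4B stood just before them. MAGEC1 and MAGEA4, also bright in BC3 and near background in BCBL1, stood apart from that stretch. XAGE genes, which had almost no signal, stood in the order between PAGE4 and PAGE2B, which were lower in BCBL1 with lenalidomide. Among the XAGE genes stood SSX7, above background on no array, and SSX2, which was one of the strongly lower genes. Because copies may share a probe's sequence, neighbouring values in a family are not independent.

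Of the 61 X-linked member genes, 48 had a promoter in the RefSeq table, 62 promoters in all. The median number of CpG in the 250 bases was 8 for these promoters and 11 over all 35116 promoters. Promoters of genes above background in BC3 and not in BCBL1 had a median of 8, as did those of genes above background in both lines, with ranges of 4 to 18 and 1 to 15. The motif CCGGAA, searched on both strands (TTCCGG on the other), is the core that ETS factors bind, and it occurred in 4 of the 62 (6.5%) and in 14.5% of all. A match is only a match of letters, and windows without one say nothing about a factor.

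Lenalidomide was followed by few calls among the members. In BCBL1, 0 of the 84 tested members passed limma's adjusted p of 0.05, where 1.74% of all probes did, 1.31% higher and 0.436% lower. An unadjusted p under 0.05 was found for 13 of the 84, beside 3441 of all 24097 probes tested. Over all 123 members the median log2 change in BCBL1 was 0.002, beside -0.006 over all probes. In BC3 the median over all members was -0.034, beside -0.006. There 2 probes passed, both lower, where 2.64% of all probes did, 1.97% higher and 0.668% lower. A CT45 probe in this contrast was known when the families were chosen, so nothing is read from that count.

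The 2 probes were those of CT45A6 and ILMN_2088560 of CT45A1. The CT45A6 probe read 252 and 271 with DMSO and 154 and 150.3 with lenalidomide in BC3, and 222 and 244 with DMSO and 174 and 171 with lenalidomide in BCBL1. The CT45A1 probe read 248 and 311 with DMSO and 162 and 148 with lenalidomide in BC3, and 242 and 238 with DMSO and 185 and 182 with lenalidomide in BCBL1. In BC3 the lenalidomide arrays were near the threshold and below both DMSO arrays, and in BCBL1 they were also the lower ones but farther above it. The log2 changes in BC3 were -1.10 ± 0.13 for CT45A6 and -1.16 ± 0.13 for CT45A1, given without a test.

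In BCBL1 the same probes had log2 changes of -0.50 ± 0.13 and -0.41 ± 0.13, and neither passed (limma adjusted p = 0.0684 and 0.164). The CT45A6 change in BCBL1 passed with 1 probe a gene. The difference of the change between lines, BCBL1 minus BC3, was 0.60 ± 0.18 for CT45A6 and 0.75 ± 0.19 for CT45A1, given without a test because the BC3 values entered the choice of the families. No member passed for that difference, where 0.261% of all probes did, 0.0913% higher and 0.17% lower. An unadjusted p under 0.05 was found for 6 of the 84 tested members, these 2 among them, beside 2240 of all 24097 probes tested.

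The other CT45 probes had smaller values. In BC3, CT45A3 ILMN_1672783 had a log2 change of 0.06, CT45A1 ILMN_1679921 of 0.15 and CT45A5 ILMN_2402042 of 0.15. The other tested CT45 probes lay between -0.17 (ILMN_2088565 of CT45A1) and 0.15, so CT45A1 was called at 1 of its 3 probes. Among probes bright in BC3 and not in BCBL1, GAGE12G had a log2 change in BC3 of 0.01, SSX2 of -0.06, MAGEC1 of -0.07, MAGEA4 of -0.16, SSX5 of -0.33 and PAGE2 of 0.26. Apart from the probes of CT45A6 and CT45A1 given first, the tested members lay between -0.36 (GAGE12C) and 0.28 (MAGEA6). In BCBL1, where GAGE12G, MAGEA4 and PAGE1 were not well above background with DMSO, lenalidomide did not bring them above it on both arrays. MAGEC1 at ILMN_2241627 and MAGEB3 were above background on 0 BCBL1 arrays with DMSO and on 2 with lenalidomide. MAGEC1 went there from 136 and 145 to 157 and 153, a log2 change of 0.37 ± 0.16 that did not pass (limma adjusted p = 0.305). The other MAGEC1 probe, ILMN_1720041, went the other way in BCBL1, from 148 and 168 to 133 and 148. It was above background on 2 arrays with DMSO and on 1 with lenalidomide (log2 change -0.18 ± 0.13, limma adjusted p = 0.575).

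**Figure D5:**
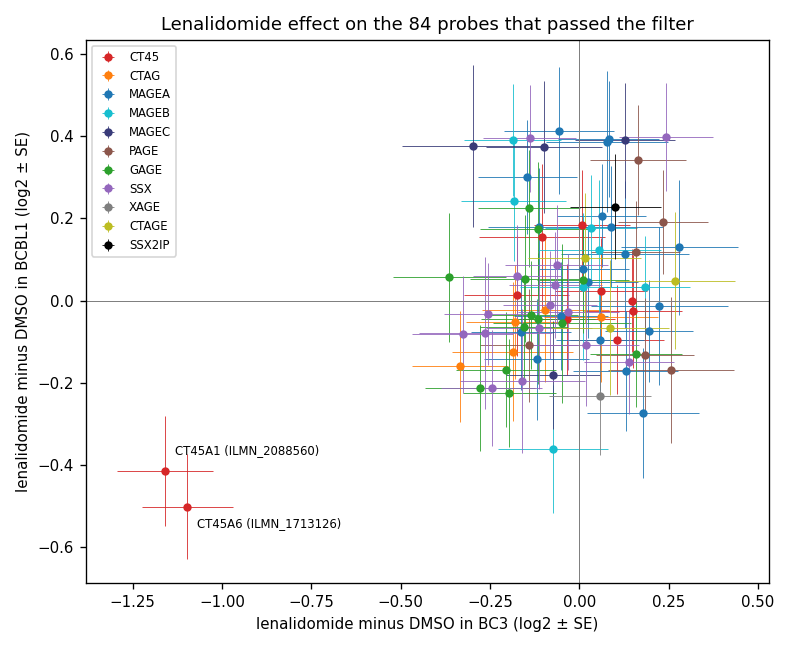
Log2 change with lenalidomide in BCBL1 (vertical axis) against that in BC3 (horizontal axis) for the 84 members that passed the detection filter, coloured by family; points are estimates from 2 arrays a group and bars are standard errors. Nearly all points surround 0 in both lines, and the probes of CT45A6 and CT45A1 stand apart at -1.10 and -1.16 in BC3 and at -0.50 and -0.41 in BCBL1.

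Other cancer-testis genes outside these families formed a list of 55, of which 52 were on the array and 32 passed the filter. With lenalidomide 5 were higher in BCBL1 and 6 lower, on 1 probe a gene, 11 of 32 where 34% of all probes passed. The decoy receptor gene IL13RA2 read 3249.5 and 4722 with DMSO and 4173 and 2949 with lenalidomide in BC3, and 132 and 133 with DMSO and 133 and 121 with lenalidomide in BCBL1. It was bright in BC3 and not above background in BCBL1, with a log2 difference of -5.63 ± 0.16 (limma adjusted p = 3.90e-12), at least 39.5-fold. CT83 (-2.70 ± 0.15) and the X-linked VCX (-1.49 ± 0.17) and VCX3A (-1.34 ± 0.13) were lower as well. BRDT, the testis form of the BET bromodomain proteins, went the other way (2.26 ± 0.14, adjusted p = 1.88e-08), with no BC3 array above background. CT55 (0.75 ± 0.13), MAEL (0.75 ± 0.17) and OIP5 (0.66 ± 0.13) were higher too. IL13RA2, CT83, VCX and VCX3A passed the filter through BC3 alone, and BRDT and MAEL through BCBL1 alone, which fixed their direction. The direction of these genes is not supported by their adjusted p. The median log2 change of the list with lenalidomide was -0.005 in BC3 and 0.012 in BCBL1.

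The MAGE genes active in many tissues had 9 tested of 11, with 1 higher and 3 lower in BCBL1, where 17.4% and 16.7% of all probes were. Necdin (NDN), an imprinted gene, gave -4.61 ± 0.13 (limma adjusted p = 3.29e-12). MAGED2 (-0.58 ± 0.13) and MAGEE1 (-0.41 ± 0.13, held in 14 of 18 settings) were lower and MAGEF1 higher (0.76 ± 0.16). MAGEH1 rose with lenalidomide in BC3, from 1243 and 1500.1 to 3509.6 and 2613 (log2 change 1.25 ± 0.13, adjusted p = 5.53e-05), and its value in BCBL1 was 0.33 ± 0.13 (adjusted p = 0.259). Among 10 tested ligases and substrates that MAGE proteins bind, 3 were lower in BCBL1 and 0 higher, beside 16.7% and 17.4% of all probes, led by the ligase gene TRIM31 (-2.65 ± 0.13, adjusted p = 8.83e-10), then PRKAA1 (-0.48) and CCAR2 (-0.39), whose call held in 9 of 18 settings. No BCBL1 array held TRIM31 above background, so it passed the filter through BC3 alone, which fixed its direction.

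The genes of DNA methylation and germline gene silencing, 28 tested of 35 listed, had 28 members above background in each BC3 group and 27 in each BCBL1 group. With lenalidomide 7 of the 28 differed between the lines, where 34% of all probes did. The 4 higher in BCBL1 were the methyltransferase genes EZH2 (1.01 ± 0.15), SUV39H1 (0.64 ± 0.12) and SETDB1 (0.58 ± 0.13) and the HUSH complex gene TASOR (0.39 ± 0.12). The 3 that were lower were the HUSH complex gene MPHOSPH8 (-0.84 ± 0.14), the maintenance methylation gene UHRF1 (-0.45 ± 0.12) and HDAC1 (-0.37 ± 0.13). Of 18 settings, the call of HDAC1 held in 8, that of TASOR in 12, that of UHRF1 in 15 and that of SETDB1 in 17. The HDAC1 difference was -0.248 without array b of BCBL1 with lenalidomide (adjusted p = 0.278). The median log2 difference of the list was -0.01. Its median change with lenalidomide was -0.061 in BC3 and -0.035 in BCBL1. Whether any of these differences bears on the cancer-testis genes was not tested.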

How the data were processed

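The deposited table holds probe intensity values on a linear scale, not normalized, per the file headers; a second deposited table holds log2 values of the same arrays, whose processing the submitters' notes credit to limma with no version. No detection p-values were used. Each log2 column matched 1 intensity column with a rank correlation of 1.

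Intensities were corrected with limma's normexp method (offset 50), quantile-normalized and taken to log2 (R 4.3.3, limma 3.58.1), which understates changes of dim probes. A probe was above background past the normal quantile for p 0.05 over the mode of its array. The filter kept probes that were above background on each array of 1 group or more (24097 of 47322, 50.9%; 1 probe at 0 was left out). limma fitted 1 mean for each group with eBayes to the 8 arrays (4 residual and 9.96 prior degrees of freedom), and p-values were adjusted by Benjamini-Hochberg over all kept probes. The script was tested on simulated data. The number of arrays limits the precision.

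Symbols came from the platform annotation; of the probes, 30113 had 1 symbol, 8 several and 17201 none here, and the gene ID of 120 of the 123 members was in the RefSeq table. The members, the gene lists and the tests were chosen with earlier results of these data known. Probes are named by family if above background, at most 8 a family by level, together with every member past the threshold, and list genes by the largest difference, up to 4 a direction. Probes are the main level because copies are near-identical. Alternatives were the offset, normalization, deposited log2 values, filters, 1 probe a gene, the prior, a replicate block, averaged arrays, leaving out each array, and other detection limits. The sources used here name no genome build for the array, so only promoter windows carry coordinates (GRCh38.p14). Protein and probe sequences are not used here.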

Additional observations from a re-analysis of the deposited data

How the results depend on the processing

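No member call changed direction in any setting. Of the 51 member calls for the line difference with lenalidomide, 42 held in every setting, as did 40 of the 52 with DMSO and both in BC3 with lenalidomide. The calls with DMSO and those in BC3 come from contrasts that entered the choice of the families, so their counts are description only. With 1 probe a gene the count with lenalidomide was 32 (3 higher, 29 lower), because fewer probes were tested, and lenalidomide gave 1 call in BCBL1 and 1 in BC3, CT45A6 in each case. With arrays averaged and 1 treatment effect fitted for both lines, 2 members were called for lenalidomide, CT45A6 and CT45A1, both lower; this effect is shared by BC3 and BCBL1 and stands in place of the 0 of BCBL1. Leaving out each array in turn gave 45 to 50 calls between lines with lenalidomide, 44 to 53 with DMSO, 2 to 2 for BC3, and 0 for BCBL1 and for the difference between lines. It gave 78 to 83 probes above background in BC3 with DMSO, 80 to 83 with lenalidomide, 55 to 55 in BCBL1 with DMSO and 51 to 52 with lenalidomide, since 1 array then sufficed in a group. At 2 times the threshold, a limit chosen after seeing the data, 25 and 26 members were above it in BCBL1 with DMSO and lenalidomide, and 52 and 50 in BC3. Over all 47322 probes the counts were 9989 and 9624 in BCBL1 and 10332 and 10228 in BC3. The replicate numbers of the log2 table did not pair the arrays (correlations of deviations -0.067 to 0.046); with them as a replicate block on the deposited log2 values, 46 members were called between lines under either treatment, 0 for lenalidomide in BCBL1, 2 in BC3 and 0 for the difference. With arrays scaled to a common median, all probes split into 2763 higher and 4935 lower in BCBL1 with lenalidomide, against 4184 and 4020, and for lenalidomide in BCBL1 into 159 and 190, against 315 and 105. Over all probes, an offset of 16 lowered the calls for lenalidomide from 420 to 162 in BCBL1, from 636 to 261 in BC3 and from 63 to 12 for the difference; the deposited log2 values gave 175, 316 and 19, and the replicate block 113, 226 and 10. Leaving out an array gave 162 to 364 calls in BCBL1, 206 to 616 in BC3 and 33 to 47 for the difference. Probes near the threshold have little signal over background, and their differences are understated.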

Other observations

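DAZL, an RNA-binding protein of germ cells, gave a bright signal in both lymphoma lines. Its probe read 6492 and 8191 with DMSO and 12966 and 8879 with lenalidomide in BC3, and 6085 and 5239.5 with DMSO and 6911 and 6990.0 with lenalidomide in BCBL1. Of 15 germ cell markers on the array 4 passed the detection filter, and the others that passed, NANOS3, TEX11 and BOLL, stayed near background. The summed intensity of the 15 was 8323 to 10183 in BC3 with DMSO, 10760 to 14969 with lenalidomide, 7170 to 7972 in BCBL1 with DMSO and 8790 to 8923 with lenalidomide. DAZL made up most of each sum. DAZL was lower in BCBL1 with lenalidomide (-0.46 ± 0.15 on the log2 scale, limma adjusted p = 0.0248, held in 12 of 18 settings) and rose with lenalidomide in BC3 (0.59 ± 0.15, adjusted p = 0.0492, held in 7 of 18 settings), with 0.52 ± 0.15 in BCBL1 (adjusted p = 0.105). Among 8 Sertoli and Leydig cell markers, AMH was the 1 that passed the filter.

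In each family with a member differing by over 1 log2 unit, the probe with the highest mean log2 value over the 8 arrays was taken. The probes most like it over those arrays were ranked by the root mean square distance of centred log2 values. For GAGE4 these were NDN (0.14), TUBA3E (0.196) and CHDH (0.198). For MAGEC1 they were TUBA3E (0.121), FHL2 (0.129) and NDN (0.184), and for SSX1 they were TAPBP (0.09), EIF5A (0.107) and ZP4 (0.144). The 8 arrays come from 2 lines, so likeness here is mostly a like difference between those lines. Members with small differences matched widely expressed genes closely: CTAG2 lay nearest to RPL29 (0.045), MAGEA1 to ULK1 (0.055), MAGEB2 to CCNT2 (0.028) and PAGE5 to HAGH and AP5M1 (0.04 each).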
